A study of Mus musculus with 9 samples.

Results

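The data described here are the open chromatin peaks of mouse brain endothelial cells (ECs) whose nearest annotated gene was an olfactory or vomeronasal receptor. Members were all peaks whose assigned gene name started with Olfr, Vmn1r or Vmn2r, and they numbered 1318 of the 253457 peaks in the 9 deposited lists (0.52%). Of these, 911 lay nearest an Olfr gene, 198 nearest a Vmn1r gene and 209 nearest a Vmn2r gene, and together they named 658 receptor genes, where the curated RefSeq set holds 1482. Peaks sharing at least 1 bp were merged across libraries into 92495 regions, of which 1071 held at least 1 receptor peak. These 1071 are called receptor regions.

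Accessible DNA was tagged and sequenced with Omni-ATAC-seq, which uses the cutting enzyme Tn5, in flow-sorted brain ECs, to ask how chromatin accessibility depends on KLF4 and age. Every mouse carried the tamoxifen-inducible Cre recombinase driven by the endothelial Cdh5 (VE-cadherin) promoter. The WT Cre controls (genotype label CdH5CRE) kept intact Klf4, and the EC-K4KO mice (label ECK4KO) also carried floxed Klf4 that Cre removed from ECs in adult animals. Young WT Cre (n = 2 libraries), young EC-K4KO (n = 3), old WT Cre (n = 2) and old EC-K4KO (n = 2) were compared. The study calls the libraries of a group biological replicates, and whether animals were pooled is not given in the sources used here, so p-values measure the spread between these libraries. All young libraries share 1 library name prefix and all old libraries another, so age and that prefix cannot be told apart.

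Olfactory receptors (Olfr) and vomeronasal receptors of the Vmn1r and Vmn2r families are G protein coupled receptors of sensory neurons in the nose. Each mature olfactory neuron expresses a single receptor gene, while the remaining genes lie in compact heterochromatin. The genes sit in long clusters of similar copies, and most have no known role in brain endothelium.

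Lists ranged from 6157 peaks in young WT Cre replicate 1 to 45026 in old EC-K4KO replicate 1, and the read depth behind them is unknown. Promoter peaks were found at 7 to 11 of 12 endothelial marker genes per library, at 0 to 5 of 8 pericyte and smooth muscle genes, at 0 of 8 microglial genes, at 0 to 2 of 8 genes for astrocytes and likewise for oligodendrocytes, and at 0 to 3 of 10 neuronal genes. Loss of the Klf4 exons cannot be read from a peak list and was not checked. A pair of libraries stood apart. Young EC-K4KO replicate 1 and old WT Cre replicate 1 held 647 of the 1318 receptor peaks (49.1%) against 26.7% of all peaks, and their median fold enrichment over local background was the lowest (3.11 and 3.41, against 4.43 to 5.35 in the other 7 libraries). Share tests are also given without both, and some presence counts without each. Shares of regions and peaks found in 1 library are given only with them.

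The sequences that carry the results are shown first, all on GRCm38. The first set is the central 200 bases, plus strand, of 3 receptor regions, chosen from those with peaks in the most libraries whose window holds no annotated UTR, with ties ordered by mean position in the list. Capitals mark bases of an annotated tRNA gene.
region near Olfr750, chr14:51083265-51083464: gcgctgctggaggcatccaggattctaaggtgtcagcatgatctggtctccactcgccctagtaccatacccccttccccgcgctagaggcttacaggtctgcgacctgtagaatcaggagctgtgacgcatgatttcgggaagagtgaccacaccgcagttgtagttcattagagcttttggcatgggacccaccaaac
first region near Olfr1423, chr19:12011404-12011603: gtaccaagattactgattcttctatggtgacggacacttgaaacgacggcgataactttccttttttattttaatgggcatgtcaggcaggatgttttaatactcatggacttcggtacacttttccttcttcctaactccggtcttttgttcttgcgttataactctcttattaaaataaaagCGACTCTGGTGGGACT
second region near Olfr1423, chr19:12002250-12002449: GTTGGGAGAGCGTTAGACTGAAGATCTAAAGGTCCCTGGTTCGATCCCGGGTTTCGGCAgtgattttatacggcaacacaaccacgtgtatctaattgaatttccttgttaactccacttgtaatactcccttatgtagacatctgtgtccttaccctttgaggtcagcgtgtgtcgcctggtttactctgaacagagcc
Near Olfr750 the tRNA gene of the region lay outside this central window, in the first region near Olfr1423 tRNA genes took 16 of the 200 bases and in the second 59.

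The second set shows 5 of the tRNA genes that the most recurrent receptor regions covered, read on the strand of the gene, with the gene in capitals and 30 flanking bases on each side in lower case. Coordinates include the flanks. They were chosen after the values were seen, as 1 or 2 genes from each of 4 recurrent regions.
tRNA proline gene n-TPagg4, chr14:51064784-51064915, minus strand: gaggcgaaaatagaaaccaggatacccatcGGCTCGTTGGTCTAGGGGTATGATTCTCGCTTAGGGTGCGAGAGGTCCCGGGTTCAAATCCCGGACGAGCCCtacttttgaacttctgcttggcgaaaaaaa
tRNA threonine gene n-TTtgt3, chr14:51065138-51065270, minus strand: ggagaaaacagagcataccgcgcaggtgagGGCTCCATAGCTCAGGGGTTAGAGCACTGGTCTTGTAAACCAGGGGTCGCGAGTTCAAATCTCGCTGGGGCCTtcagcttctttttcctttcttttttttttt
tRNA leucine gene n-TLtag2, chr14:51082800-51082941, minus strand: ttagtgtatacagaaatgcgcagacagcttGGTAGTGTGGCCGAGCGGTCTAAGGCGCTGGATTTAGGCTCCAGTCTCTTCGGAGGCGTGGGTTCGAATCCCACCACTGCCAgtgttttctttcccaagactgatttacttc
tRNA valine gene n-TVtac1, chr19:12011901-12012033, plus strand: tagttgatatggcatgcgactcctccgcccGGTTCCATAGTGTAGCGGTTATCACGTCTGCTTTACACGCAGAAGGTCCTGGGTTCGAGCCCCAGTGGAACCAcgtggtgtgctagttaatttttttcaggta
tRNA phenylalanine gene n-TFgaa6, chr19:12002206-12002338, plus strand: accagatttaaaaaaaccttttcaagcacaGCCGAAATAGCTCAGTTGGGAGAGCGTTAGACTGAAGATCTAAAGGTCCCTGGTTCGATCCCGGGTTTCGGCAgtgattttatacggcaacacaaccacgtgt
tRNA genes are short and are transcribed by RNA polymerase III from promoter elements inside the gene.

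For contrast, the third set gives the central 200 bases, plus strand, of receptor peaks seen in 1 library only, taken at the median strength of such peaks in the longest and in the shortest list. No base of either lay in an annotated tRNA gene, and in the second all bases (100%) were masked as repeats in the reference.
peak near Vmn2r79 of old EC-K4KO replicate 1, chr7:87059435-87059634: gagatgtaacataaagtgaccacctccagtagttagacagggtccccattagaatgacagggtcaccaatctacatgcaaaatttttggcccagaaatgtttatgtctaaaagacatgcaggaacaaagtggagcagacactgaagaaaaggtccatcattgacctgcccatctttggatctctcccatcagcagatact
peak near Vmn1r236 of young WT Cre replicate 1, chr17:21298917-21299116: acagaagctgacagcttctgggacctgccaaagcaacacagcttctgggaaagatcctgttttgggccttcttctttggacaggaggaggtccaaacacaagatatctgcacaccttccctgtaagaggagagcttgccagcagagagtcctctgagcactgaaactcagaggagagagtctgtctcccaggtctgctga
Both of these peaks were narrow and weak. The first was 214 bp wide with a 3.13-fold enrichment and the second 231 bp wide with a 4.05-fold enrichment.

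Most receptor peaks occurred in 1 library, and of the 10 regions that recurred in 7 or more libraries 5 overlapped tRNA genes. Of the 1071 receptor regions, 963 (89.9%) had a peak in a single library, 56 in 2 libraries, 52 (4.86%) in 3 or more and 3 in all 9. Of the 963, 231 were in young EC-K4KO replicate 1 and 300 in old WT Cre replicate 1, the libraries that stood apart. Among the 42178 other regions whose peaks were all of the Intergenic class, 69.4% had a peak in a single library and 22.0% in 3 or more, and among all 91424 other regions the shares were 56.9% and 34.1%.

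**Figure D1:**
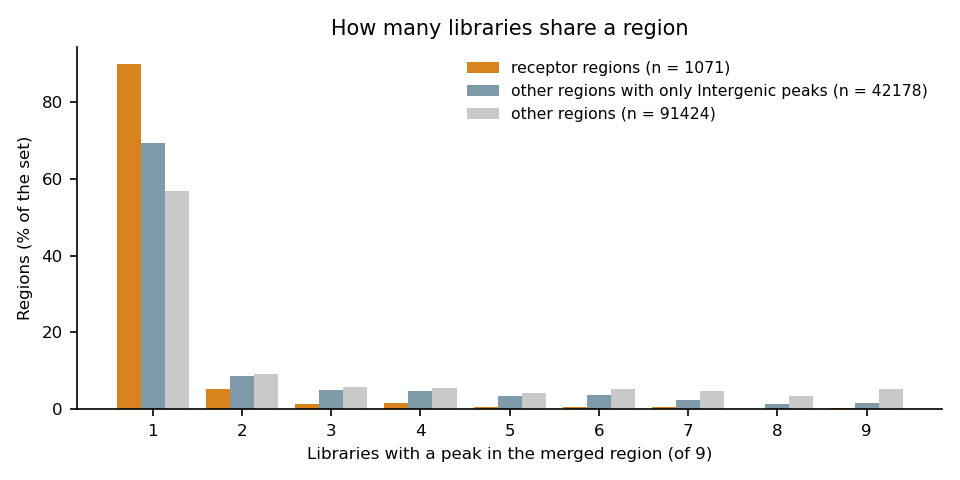
Bars give the percentage of merged regions (y axis) with a peak in 1 to 9 libraries (x axis), for receptor regions, for other regions with only Intergenic peaks and for all other regions. Receptor regions stand at 89.9% in the bar for 1 library and at 0.28% in the bar for 9.

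The 3 regions present in all 9 libraries were a pair nearest Olfr750 on chromosome 14 and 1 nearest Olfr1423 on chromosome 19. In the first, chr14:51082746-51083983, the fold enrichment was 5.40 and 4.10 in young WT Cre, 4.82, 6.44 and 7.76 in young EC-K4KO, 5.84 and 6.15 in old WT Cre and 7.10 and 7.55 in old EC-K4KO. The young WT Cre libraries were among the 3 lowest, both old EC-K4KO libraries were above both old WT Cre libraries, and young EC-K4KO overlapped every group. It covered the leucine tRNA gene n-TLtag2, which the library's own peak reached in 4 of 9 libraries. The folds of this region and of those below are not scaled to the library. Over all peaks of a list the median fold was 4.67 and 4.43 in young WT Cre and 3.11, 4.55 and 4.50 in young EC-K4KO. That median was 3.41 and 4.72 in old WT Cre and 4.75 and 5.35 in old EC-K4KO.

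In the second, chr14:51063279-51065521, the strongest peak of each library had a fold of 6.32 and 5.54 in young WT Cre, 4.30, 8.26 and 7.96 in young EC-K4KO, 5.41 and 4.58 in old WT Cre and 5.17 and 5.86 in old EC-K4KO. Both old WT Cre libraries were below both young WT Cre libraries, and young EC-K4KO spanned the range of all groups. Peaks covered the proline tRNA gene n-TPagg4 and the threonine tRNA gene n-TTtgt3 in 9 of 9 libraries and the leucine tRNA gene n-TLaag8 in 7. Of the 16 peaks in this region 9 were assigned to Olfr750, and the widest receptor peak of all, 2134 bp in old WT Cre replicate 2, was among them.

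In the third, chr19:12010463-12012543, the fold was 4.06 and 4.40 in young WT Cre, 3.89, 5.93 and 4.64 in young EC-K4KO, 4.74 and 5.06 in old WT Cre and 4.90 and 4.92 in old EC-K4KO. Young WT Cre lay below both old groups, and young EC-K4KO spanned the range of all of them. Peaks covered the valine tRNA genes n-TVtac1 and n-TVtac2 in 9 of 9 libraries, the arginine tRNA gene n-TRtct1 in 7 and the leucine tRNA gene n-TLtaa4 in 4.

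A further 7 receptor regions had a peak in 7 libraries. Young WT Cre had the shortest lists (6157 and 9598 peaks, against 23848 to 45026). How often other regions in 7 libraries lacked a peak in young WT Cre was not counted. The region nearest Olfr311, chr11:58846953-58847431, had a fold of 3.54, 5.58 and 6.86 in young EC-K4KO, 8.79 and 10.3 in old WT Cre and 11.7 and 11.7 in old EC-K4KO, with no peak in young WT Cre. Its libraries fell in separate ranges by group in these folds, which are not scaled to the median of the list. It was the strongest receptor peak of old WT Cre replicate 2, and its centre lay 34 bp from the start site of Gm12258, an annotated protein-coding gene.

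The region nearest Olfr750 at chr14:51068991-51069501 covered no tRNA gene and lay in the annotated extent of Olfr750 in GENCODE M21. Its fold was 3.63, 3.72 and 3.73 in young EC-K4KO, 6.37 and 5.55 in old WT Cre and 8.11 and 6.69 in old EC-K4KO, and no peak was called in young WT Cre. It was the strongest receptor peak in 3 libraries, old WT Cre replicate 1 and both old EC-K4KO, with a -log10 p of 54.0, 86.9 and 61.4. The assigned start site of Olfr750 was 2214 bp away (median).

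The region nearest Olfr1423 at chr19:12002169-12002530 covered the phenylalanine tRNA gene n-TFgaa6 in 7 of 7 libraries, with folds of 4.27 to 8.72 and no peak in young WT Cre. The region nearest Olfr1368, chr13:21160660-21161481, covered the glutamic acid tRNA gene n-TEctc11 in 7 of 7 and a phenylalanine tRNA gene, n-TFgaa4, in 6, with folds of 3.82 to 6.75. Both phenylalanine tRNA genes have identical sequence over all 73 bases, and so do n-TVtac1 and n-TVtac2. How reads were shared among such copies was not tested.

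The remaining 3 of the 7 covered no annotated tRNA gene and had no start site of another gene within 1000 bp. They lay nearest Olfr291 (chr7:84779104-84779798, folds 3.16 to 6.69), Olfr155 (chr4:43859759-43861403, folds 2.83 to 6.26) and the pseudogene Olfr1372-ps1 (chr11:52167268-52168622, folds 4.01 to 5.41). The last lay inside the annotated extents of Olfr1372-ps1 and of the long noncoding RNA Gm26551. Next in order were regions in 6 libraries nearest Olfr371 (chr8:85220661-85221671, folds 4.28 to 9.21) and Vmn1r3 (chr4:3339586-3340410, folds 3.73 to 6.87), the most recurrent Vmn1r region, found in 2 of 3 young EC-K4KO libraries and in all 4 old libraries. The Olfr291 and Vmn1r3 regions lay far from the gene they are named by, at -74029 and -154574 bp from its TSS (medians). The median distance over all receptor peaks was 10631 bp.

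tRNA genes were thus counted over all regions, a comparison added after the sequences had been read. Of the 10 receptor regions with peaks in 7 to 9 libraries, 5 (50%) overlapped an annotated tRNA gene by at least 1 bp, against 43 of 2202 (1.95%) other regions with only Intergenic peaks and the same recurrence. Of the 963 receptor regions in 1 library 1 did (0.104%), against 10 of 29277 (0.0342%). Over all regions the share was 82 of 12213 (0.671%) in 7 to 9 libraries and 12 of 52987 (0.0226%) in 1. In all, 7 receptor regions held 13 of the 403 tRNA genes that RefSeq annotates on the nuclear chromosomes. These 7 regions lie in 3 clusters and their tRNA genes are neighbours, so they are not 7 independent places. They gave 3 to 7 receptor peaks per library, 48 in all. In young WT Cre replicate 1 they were 3 of 14 receptor peaks.

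**Figure D2:**
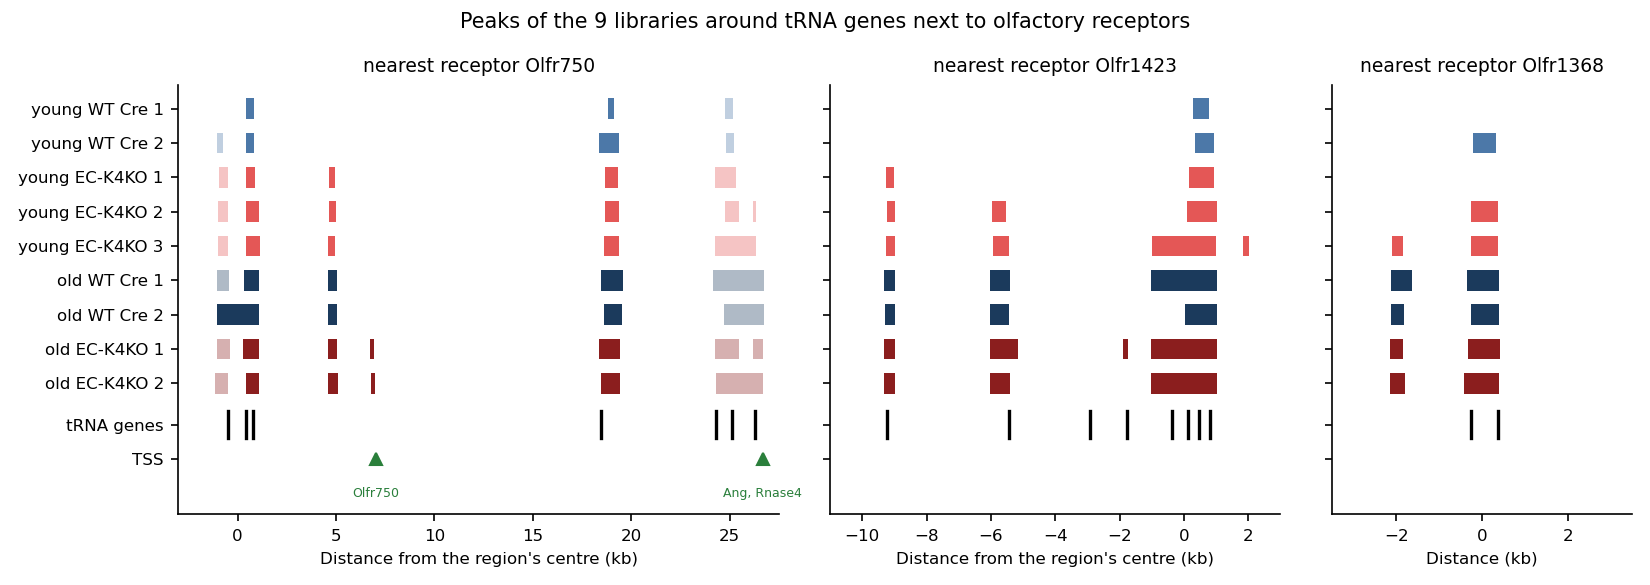
Each bar is a peak of 1 library (rows), drawn by its distance in kb from the centre of the region in the most libraries near Olfr750, Olfr1423 and Olfr1368 (x axes), with tRNA genes as black ticks and transcription start sites (TSS) as green triangles. Full colour marks peaks assigned to a receptor and pale colour peaks assigned to another gene. Peaks cover n-TPagg4 and n-TTtgt3 near Olfr750 and n-TVtac1 and n-TVtac2 near Olfr1423 in all 9 libraries. Some other tRNA genes are covered in fewer libraries, and n-TFgaa2 near Olfr1423 in none. No bar spans the Olfr750 TSS.

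The median receptor peak, those at tRNA genes included, lay in the weaker part of every list. Position was measured by ranking each library's peaks by -log10 p, from 0% for the strongest to 100% for the weakest. The median receptor peak stood at 82.4% and 87.2% in young WT Cre, 76.6%, 85.5% and 86.5% in young EC-K4KO, 79.5% and 85.8% in old WT Cre and 80.6% and 73.8% in old EC-K4KO. All 9 medians were below the strength of the median peak, and both old EC-K4KO medians were stronger in position than both young WT Cre medians. Receptor peaks stood 32.2 ± 4.7 percentage points (mean ± SD, n = 9 libraries) further down than other peaks of the same library (two-sided exact sign-flip permutation test over libraries, p = 0.0039, the smallest it can give, BH adjusted p = 0.0049 over 5 tests). Against other Intergenic peaks the difference was 16.6 points, in the same direction in 9 of 9 libraries. Of all receptor peaks, 62.4% lay in the weakest 25% of their list and 5 (0.379%) in the strongest 10%.

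The share of receptor peaks by strength differed in shape among libraries. Each list was cut into 10 bins of about equal size, with tied peaks kept together, so that the weakest bin held 3192 peaks of young EC-K4KO replicate 2 and 3263 of replicate 3 and the bin before it 1870 and 2335. In the strongest bin the share was 0 to 0.0456%, and in the weakest it was 0.487% and 1.04% in young WT Cre, 3.02%, 1.91% and 2.42% in young EC-K4KO, 2.37% and 1.01% in old WT Cre and 0.822% and 0.640% in old EC-K4KO. In young EC-K4KO replicate 1 it stepped from 0.252% to 1.26% between the fourth and the fifth bins, and in old WT Cre replicate 1 from 0.273% to 1.53% between the sixth and the seventh. The other libraries stayed under 0.45% up to the seventh.

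**Figure D3:**
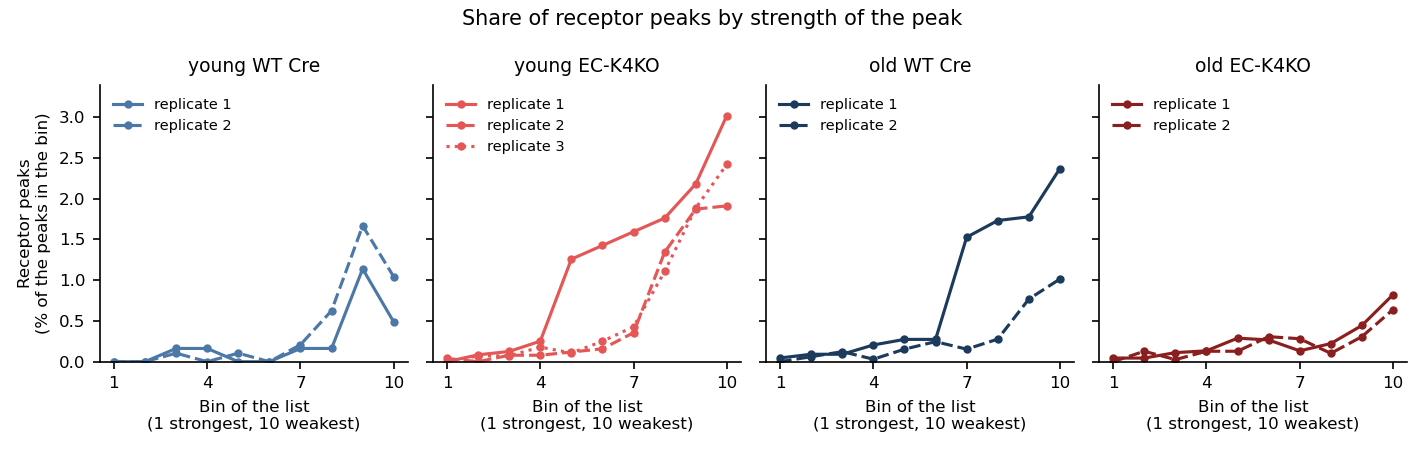
Each panel is a group and each line a library, with 10 bins of the list from the strongest (1) to the weakest (10) on the x axis and the percentage of peaks in that bin that were receptor peaks on the y axis. Lines climb in the weak bins, reaching 3.02% in young EC-K4KO replicate 1 and 0.640% in old EC-K4KO replicate 2.

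Receptor peaks were also narrow. Their median width was 256.5 and 251 bp in young WT Cre, 316, 251 and 257 bp in young EC-K4KO, 268.5 and 290 bp in old WT Cre and 297 and 339 bp in old EC-K4KO, against 347 to 451 bp for other peaks. They were narrower in 9 of 9 libraries, with a mean difference of -115 ± 24.5 bp (n = 9, exact sign-flip p = 0.0039, adjusted p = 0.0049), and of -41.1 bp against other Intergenic peaks. Among the 6157 strongest peaks of each library, the length of the shortest list, receptor peaks differed by -31.8 bp on average. They were wider in 4 of 9 libraries there (adjusted p = 0.49, exact sign-flip permutation test). Only 1 to 14 receptor peaks per library remained in that set, too few to tell whether the width difference depends on strength.

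Their sequence was poorer in G and C than that of other peaks. Median GC content was 45.5% to 52.2% across libraries against 51.3% to 62.4%, lower in 9 of 9, with a mean difference of -6.98 ± 2.36 percentage points (exact sign-flip p = 0.0039, adjusted p = 0.0049), and of -1.81 points against other Intergenic peaks. The median receptor peak was repeat-masked over 38.2% and 38.5% of its bases in young WT Cre, 36.8%, 45.9% and 38.2% in young EC-K4KO, 23.1% and 15.4% in old WT Cre and 11.5% and 12.3% in old EC-K4KO, against 7.89% to 14.4% for other Intergenic peaks. Every young library was above every old one in this measure, which was not tested. By family the median repeat share was 18.6% for Olfr, 33.8% for Vmn1r and 51.0% for Vmn2r peaks.

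**Figure D4:**
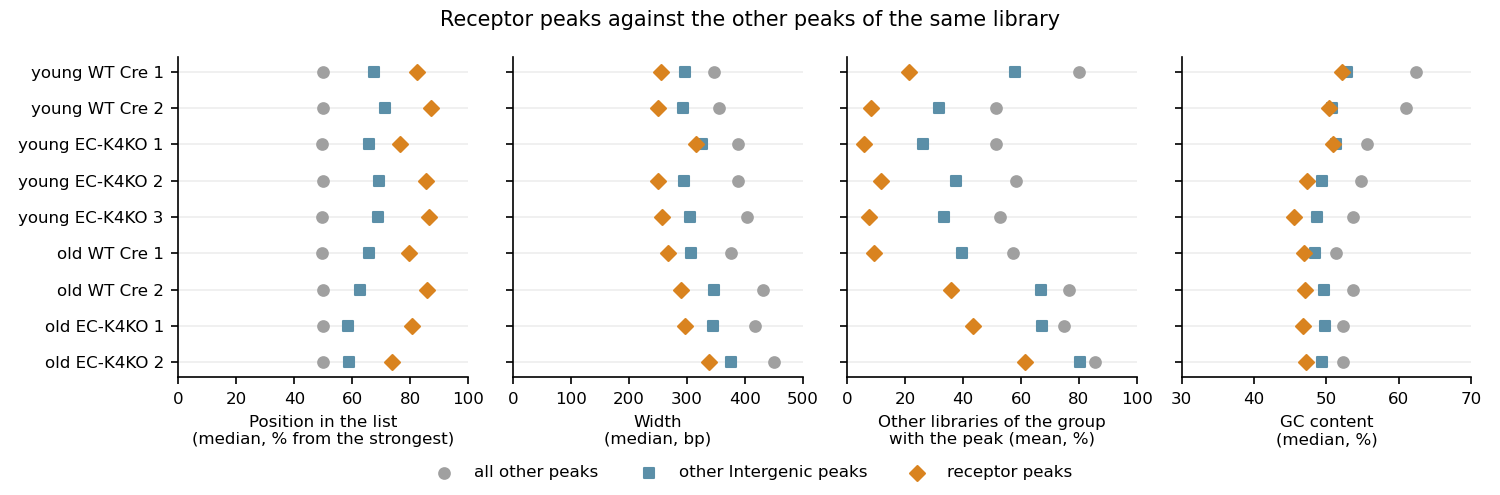
Rows are libraries and symbols give, from left to right, the median position in the list (%), the median width (bp), the mean percentage of other libraries of the group with the peak and the median GC content (%, axis from 30 to 70), for receptor peaks, other Intergenic peaks and all other peaks. Receptor peaks are the weakest, narrowest and least shared set in each of the 9 rows, and the lowest in GC content.

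Receptor peaks were also less often shared within a group. On average a receptor peak was overlapped in 21.4% and 8.33% of the other libraries of its group in young WT Cre, in 5.73%, 11.6% and 7.57% in young EC-K4KO, in 9.24% and 35.9% in old WT Cre and in 43.4% and 61.3% in old EC-K4KO. Old EC-K4KO was above every other library. Other peaks of the same libraries were shared at 51.3% to 85.6%, a mean difference of -42.6 ± 9.84 percentage points (n = 9, lower in 9 of 9, exact sign-flip p = 0.0039, adjusted p = 0.0049), and of -26.2 points against other Intergenic peaks. Libraries of a group are scored on the same overlaps, so these 9 differences are not independent and the p-value overstates the evidence. Among the 6157 strongest peaks the difference was -13.4 points and receptor peaks were higher in 5 of 9 libraries (adjusted p = 0.27, exact sign-flip permutation test), where only 1 to 14 receptor peaks per library remained.

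Strength and recurrence went together within the receptor peaks. The 963 peaks found in 1 library had a median position of 86.3%, a fold of 3.10, a width of 250 bp and a repeat share of 40.96%. The 78 receptor peaks of regions in 7 to 9 libraries had a median position of 28.8%, a fold of 5.41, a width of 568 bp and a repeat share of 9.21%. Other Intergenic peaks ran the same way, from 85.7% and 245 bp in 1 library to 25.8% and 527 bp in 7 to 9, but 34.3% of them were in 1 library, against 73.1% of receptor peaks.

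The number of receptor peaks per library was 14 and 36 in young WT Cre, 279, 151 and 185 in young EC-K4KO, 368 and 92 in old WT Cre and 113 and 80 in old EC-K4KO. Young WT Cre was lowest and old WT Cre spanned the widest range. As a share of the list they were 0.227% and 0.375% in young WT Cre, 1.17%, 0.597% and 0.661% in young EC-K4KO, 0.838% and 0.283% in old WT Cre and 0.251% and 0.205% in old EC-K4KO. All 3 young EC-K4KO shares were above both young WT Cre shares, while both old EC-K4KO shares were below both old WT Cre shares.

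**Figure D5:**
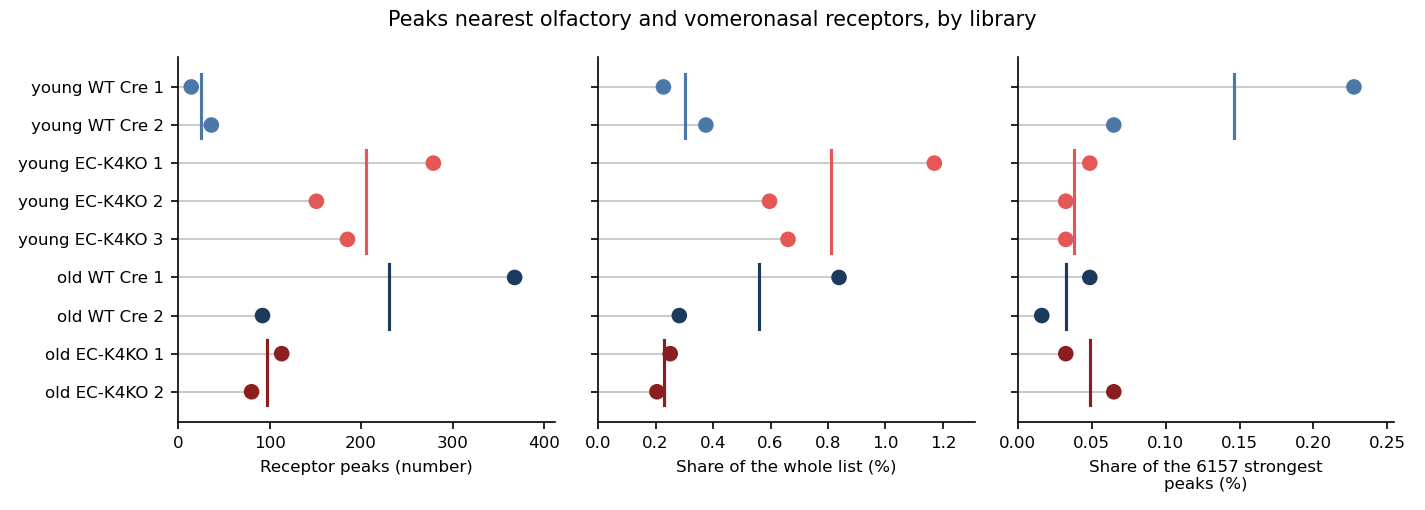
Points give, for each library (rows), the number of receptor peaks, their percentage of the whole list and their percentage of the 6157 strongest peaks, and vertical lines give group means. The whole-list share runs from 0.205% in old EC-K4KO replicate 2 to 1.17% in young EC-K4KO replicate 1, and the share among the strongest peaks is under 0.07% in every library but young WT Cre replicate 1.

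Averaged over both ages, EC-K4KO minus WT Cre was 0.0876 percentage points (two-sided exact permutation test within age, 9 libraries, p = 0.70, adjusted p = 0.70 over 4 tests). It was 0.508 points in young mice and -0.333 in old mice. Old minus young, averaged over both genotypes, was -0.161 points (exact permutation p = 0.53, adjusted p = 0.70), with 0.259 in WT Cre and -0.581 in EC-K4KO. Neither difference exceeded the spread between libraries, where the smallest p this design allows is 0.017. The genotype difference changed sign without young EC-K4KO replicate 1 (-0.00256 points) or without old WT Cre replicate 2 (-0.0513 points). Without the pair of libraries that stood apart the differences were 0.136 and -0.210 points (adjusted p = 0.56 for both, exact permutation tests, 7 libraries, where no p can go below 0.056).

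At equal list length, that is among the 6157 strongest peaks of each library, receptor peaks numbered 14 and 4 in young WT Cre, 3, 2 and 2 in young EC-K4KO, 3 and 1 in old WT Cre and 2 and 4 in old EC-K4KO. Young WT Cre replicate 1 stood above the rest, and for it this is the whole list. The genotype difference was -0.0460 and the age difference -0.0514 percentage points (exact permutation tests, p = 0.28 and 0.38, adjusted p = 0.70 for both). At these counts no difference was detectable.

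A stricter q value removed receptor peaks unevenly among libraries. With q under 0.05, 753 of the 1318 remained, and with q under 0.01, 283. At the latter limit receptor peaks were 0.0844% and 0.0604% of the list in young WT Cre, 0.296%, 0.101% and 0.128% in young EC-K4KO, 0.188% and 0.127% in old WT Cre and 0.168% and 0.155% in old EC-K4KO. Young EC-K4KO replicate 1 kept 11.8% of its receptor peaks and 47.2% of its other peaks, and old EC-K4KO replicate 2 kept 67.5% and 89.2%. Both young WT Cre libraries were then lowest, and young EC-K4KO replicate 1 remained highest.

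Per Mb, DNA nearest a receptor TSS held fewer peaks than the rest of the genome in 9 of 9 libraries. The bases whose nearest curated RefSeq TSS belongs to a receptor add up to 54.6 Mb, or 2.06% of the genome. Peaks per Mb there were 0.238 and 0.604 in young WT Cre, 4.90, 2.69 and 3.29 in young EC-K4KO, 6.50 and 1.59 in old WT Cre and 1.96 and 1.30 in old EC-K4KO, against 2.37 to 17.3 elsewhere. The ratio of these densities was 0.539 in young EC-K4KO replicate 1, 0.387 in old WT Cre replicate 1 and 0.0864 to 0.307 in the other 7 libraries. Intergenic peaks alone, divided by all 2593 Mb elsewhere and not by its intergenic part, gave 0.450 and 0.822 per Mb in young WT Cre. They gave 3.36, 3.13 and 3.55 in young EC-K4KO, 6.82 and 4.03 in old WT Cre and 5.89 and 4.89 in old EC-K4KO. The density of receptor peaks of all classes was above this value in young EC-K4KO replicate 1 and below it in the other 8 libraries. These densities differ in the classes counted and in the DNA divided by, so they are not like for like. Reads that map to several near-identical copies were removed before peak calling, and the part of that filter in this depletion was not tested. Chromosome 7, which holds 30.2% of the receptor territory, gave 344 receptor peaks (26.1%), and chromosome X, with 3.63% of the territory, gave 0.

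Receptor peaks were spread through the receptor territory rather than gathered at receptor promoters. The median distance to the assigned TSS was 9924.5 and 9881 bp in young WT Cre, 11320, 12243 and 10060 bp in young EC-K4KO, 10441 and 12057.5 bp in old WT Cre and 9800 and 9611 bp in old EC-K4KO. Both old EC-K4KO medians were shorter than both young WT Cre medians, which were shorter than every young EC-K4KO and old WT Cre median. Over all receptor peaks it was 10631 bp, while a base of the receptor territory lay a median of 10989 bp from its nearest TSS, and 6.22% of the peaks were within 1000 bp, against 5.44% of the territory. Because receptor genes are packed, distance is in part set by how members were chosen. On a log10 scale (1 bp added) the difference from all other peaks was 0.247 ± 0.758 (n = 9, longer in 3 of 9, exact sign-flip permutation p = 0.49, adjusted p = 0.49), and it was -0.585 against other Intergenic peaks (shorter in 9 of 9).

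By class, 86.4% of receptor peaks were Intergenic, and 12 of 1318 were of the promoter-TSS class, against 18.9% to 55.6% of other peaks per library. The 12 were 1 peak each at Olfr1012, Olfr1513, Olfr20, Olfr316, Olfr376, Olfr38, Olfr525, Olfr531, Olfr597, Olfr658, Olfr735 and Vmn2r56, with none found in more than 1 library. They fell in young EC-K4KO (1, 2 and 4 peaks), old WT Cre replicate 2 (1) and old EC-K4KO replicate 1 (4). The best placed was at Olfr658 in old EC-K4KO replicate 1, 178 bp wide, 46 bp upstream of the TSS, with a fold of 3.64 at position 77.5% of the list. By comparison, 3399 to 8468 genes had a promoter-TSS peak per library.

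Presence in one group and absence from another was counted over all 92495 regions. A region with a peak in at least 2 libraries of young EC-K4KO and in none of young WT Cre was found for 10.2% of all regions and for 25 (2.33%) of receptor regions. For old WT Cre over young WT Cre the background was 17.4% and the receptor count 29 (2.71%). For old EC-K4KO over old WT Cre they were 4.76% and 8 (0.747%), and for old EC-K4KO over young EC-K4KO 11.4% and 23 (2.15%). Receptor regions were below the background in all 4 of these comparisons, which share libraries with each other. Other regions with only Intergenic peaks gave 6.57%, 12.9%, 4.04% and 10.1% in that order. A call needs a peak in 2 or more libraries, which 10.1% of receptor regions and 43.1% of other regions had. A lower count of receptor regions was thus in part set beforehand by their low recurrence. The first count was 11 (1.31%, background 10.4%) without young EC-K4KO replicate 1, 9 (0.946%, background 4.85%) without replicate 2 and 15 (1.64%, background 4.79%) without replicate 3. The count for old EC-K4KO over old WT Cre was 16 (2.08%, background 9.33%) without old WT Cre replicate 1 and 12 (1.18%, background 7.44%) without replicate 2.

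The opposite directions held few regions. In at least 2 young WT Cre libraries and in none of young EC-K4KO, or in none of old WT Cre, the background was 0.00108% (1 region each) and the receptor count 0. In old WT Cre and not in old EC-K4KO the background was 0.427% and the receptor count 3 (0.280%). In young EC-K4KO and not in old EC-K4KO it was 0.439% with 13 receptor regions (1.21%), the single comparison in which receptor regions exceeded the background. With 1 young EC-K4KO library left out, so that both remaining ones had to hold the peak, it was 1 (0.119%, background 0.102%) without replicate 1, 3 (0.315%, background 0.162%) without replicate 2 and 9 (0.981%, background 0.244%) without replicate 3.

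The best placed regions of these comparisons were the ones nearest Olfr311, Olfr1423 (chr19:12002169-12002530) and Olfr750 (chr14:51068991-51069501), present in 3 of 3 young EC-K4KO, 2 of 2 old WT Cre and 2 of 2 old EC-K4KO libraries and in no young WT Cre library. In old EC-K4KO and not in old WT Cre they were nearest Olfr221 (median fold 7.46), Olfr1328 (6.28) and Olfr90 (4.38). In old EC-K4KO and not in young EC-K4KO they were nearest Olfr60 (chr7:140356321-140357044, fold 6.50), Olfr536 (5.29) and Olfr94 (5.86), and old WT Cre also had the first and second in 2 of 2 libraries and the last in 1 of 2. Those in old WT Cre and not in old EC-K4KO, nearest Olfr686, Olfr225 and Olfr692, were weak, at positions of 86.7% to 89.9%, and those in young but not old EC-K4KO, nearest Vmn1r91, Olfr344 and Olfr1380, lay at 67.8% to 69.5%.

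By family, Olfr peaks were the least confined to 1 library. Of Olfr peaks 66.7% were found in 1 library, of Vmn1r peaks 80.3% and of Vmn2r peaks 93.8%. Median positions were 79.5%, 84.9% and 86.9%, and median distances to the TSS 8307, 14210 and 35662 bp. The genes named by the most regions were Olfr1505 and Olfr1507 (12 regions each), Vmn2r96 (8) and Vmn2r104 and Vmn2r69 (7 each), and every one of their regions held 1 receptor peak. Regions assigned to Olfr1507 included ones within 1000 bp of the T cell receptor V segments Trav2, Trav7-1, Trav9n-1 and Trav11n. Assignment to the nearest receptor thus does not place a region inside a receptor cluster.

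Other gene families with narrow tissue use were counted in the same way. Per 100 curated genes the receptors gave 88.9 peaks over all libraries, other chemosensory receptors (taste, trace amine and formyl peptide receptors) 127, keratin-associated proteins 87.5, defensins 45.9 and cornified envelope genes 29.7. Peaks found in 1 library made up 73.1% of receptor peaks and 85.9%, 63.3%, 85.3% and 100% of the others in that order, and the median positions ran from 79.9% to 89.2%. Promoter-TSS peaks were 12 of the 1318 receptor peaks, 0 of 71 for other chemosensory receptors, 6 of 49 for keratin-associated proteins, 5 of 34 for defensins and 1 of 11 for cornified envelope genes. No test was made between families.

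Genes that carry the signal from the receptors are separate from the receptors themselves and had promoter peaks in part. Of 11 olfactory signalling genes, 7 had no promoter-TSS peak in any library, among them Omp, the olfactory marker protein, Gnal, the olfactory G protein, and Cnga2, the olfactory cyclic nucleotide channel. Adcy3, the olfactory adenylyl cyclase that other tissues also use, had one in 4 libraries, and Ric8b, a chaperone of G proteins, in 9. Of 3 vomeronasal signalling genes, Trpc2, the vomeronasal channel, had none, while Gnai2, a widely expressed G protein subunit, had one in 9 libraries and Gnao1, a G protein subunit abundant in neurons, in 7. The receptor export genes Rtp1, Rtp2 and Reep1 had none in any library. Of 9 genes that regulate receptor choice, Ldb1 had a promoter peak in 9 libraries, Ebf1 in 8, Ebf3 and Ebf4 in 6, Lhx2 and Kdm1a in 5, Emx2 in 1, and Ebf2 and Atf5 in none.

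The central 200 bases of each region were searched on both strands for the ETS motif CCGGAAGT, the KLF motif GGGNGTGG, the AP-1 motif TGANTCA and the CTCF motif. In the 52 receptor regions of 3 or more libraries, KLF was found in 4 (7.69%), AP-1 in 4 (7.69%), CTCF in 1 (1.92%) and ETS in 0, against 8.98%, 11.2%, 3.22% and 0.777% of 9268 other Intergenic regions with that recurrence. In the 963 receptor regions of 1 library the shares were 5.09%, 5.40%, 0% and 0.104%, against 5.54%, 6.79%, 1.00% and 0.150% of 29277 other Intergenic regions of 1 library. Over all 92495 regions they were 7.47%, 7.64%, 1.69% and 0.95%, so that KLF and AP-1 in recurrent receptor regions were near the share of all regions.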

How the data were processed

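Peak lists of 9 Omni-ATAC-seq libraries were used, with the groups taken from the genotype and age group labels. Per the methods and the submitters' processing notes, TrimGalore was used by the authors for trimming and Bowtie2 for alignment to mm10 (GRCm38), followed by removal of duplicates and of poorly mapped or unpaired reads, and MACS2 broad peak calling was done in each library alone. The deposited files give, per peak, a score (10 times -log10 q), the fold enrichment over local background as a ratio, the -log10 p-value and the -log10 q-value, and the lowest -log10 q was 1.00. The deposited annotation gives the nearest gene and the distance to its TSS in bp. Its header names HOMER annotatePeaks, whereas the methods name ChIPseeker. No read counts were used, so depth is unknown. The DiffBind analysis of reads was not rerun.

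Members were taken by gene name. Members, lists and tests were chosen with earlier results of these data known, and the tRNA comparison and the 2 libraries left out together, and the presence counts with 1 library left out, were chosen after the values were seen. By nearest curated RefSeq TSS, 95.5% of receptor peaks remained receptor peaks. Overlapping peaks (1 bp or more) of all libraries were joined into regions. The central sequence of 1 of the 4 most recurrent regions eligible for display is not reported here. Sequences and tRNA genes came from RefSeq on GRCm38 and extents of other genes from GENCODE M21.

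Shares were compared with exact permutation tests within strata, and receptor with other peaks of a library with exact sign-flip tests, two-sided, with Benjamini-Hochberg (BH) adjustment within 4 and 5 tests and a threshold of 0.05. Named were the 12 regions in the most libraries, the strongest peak of each library, up to 10 genes with a promoter-TSS peak (all 12 are given, so 2 fall outside the rule), the 5 genes nearest the most regions, the widest peak, and the 3 best placed regions of each presence comparison. Alternatives were the q limit, list length, the set of other peaks, the replicate block and each library left out. Python 3.11.15, numpy 2.4.6, pandas 2.3.3, scipy 1.17.1, pysam 0.24.0 and matplotlib 3.10.9 were used, and the tests were tested on simulated data.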

Additional observations from a re-analysis of the deposited data

Results flagged for a closer look

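The genotype difference in the receptor share of the list ran in opposite directions at the 2 ages. All 3 young EC-K4KO libraries were above both young WT Cre libraries and both old EC-K4KO libraries were below both old WT Cre libraries, and the old difference minus the young one was -0.841 percentage points (two-sided exact permutation test of genotype labels within age, 60 arrangements, p = 0.033, not adjusted). The highest shares in each age were those of young EC-K4KO replicate 1 and old WT Cre replicate 1, the libraries with the lowest median fold enrichment. Without both, the difference was -0.382 points (exact permutation p = 0.11, where the smallest p is 0.056), and their part in it was not tested.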

How the results depend on the processing

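The depth behind the lists is unknown, the design has 2 or 3 libraries per group, and counts among the strongest peaks were 14 or fewer. The rank and GC differences kept their direction and their call under every alternative and with each library left out (31.5 to 33.2 points and -7.32 to -6.51 points with 1 left out). So did width (-120 to -111 bp) and recurrence (-46.8 to -40.3 points) with 1 left out, but among the strongest peaks up to the length of the shortest list they were -31.8 bp and -13.4 points and not past the threshold, while the distance difference there was 1.65 on the log10 scale (adjusted p = 0.0065, exact sign-flip permutation test). Distance was -0.585 against Intergenic peaks and 0.0742 to 0.320 with 1 library left out. No difference in share passed the threshold under any alternative run. With 4 tests in the family, a lone difference at the smallest p of the full design (0.017, exact permutation test) cannot pass after adjustment. With q under 0.01 the age differences changed sign to 0.0360 points of the list and 0.00176 at equal length. With 1 library left out the genotype share difference was -0.0513 to 0.227 and the age one -0.300 to -0.0221, and at equal length -0.0866 to -0.00541 and -0.0920 to -0.0108. The age by genotype difference was -0.340 with q under 0.05, -0.0987 with q under 0.01, -1.40 as a share of Intergenic peaks (exact permutation p = 0.23, 0.33 and 0.067) and -0.382 without the 2 libraries, and -1.12 to -0.563 with 1 left out, keeping its call in 1 of 9 cases. With any young EC-K4KO library left out this test cannot give a p under 0.05, so the call could not be kept there. The replicate block gave 0.125, -0.198, -0.0447 and -0.0528 points for the 4 shares (adjusted p = 0.75 each, exact test over 4 pairs). An exact test over 4 pairs cannot give a p under 0.05, so it could change no call. Same-numbered libraries correlated at -0.0173 to 0.276 over 4872 regions, above 0.1 in 2 of 8 pairs, both of old libraries, and the numbers were not taken as pairs. Receptor regions in 3 or more libraries numbered 39 to 49 under the alternatives, against 52. The causes of these changes were not tested.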
